A study of Mus musculus with 2 samples.

Results

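The protein kinase C genes Prkca, Prkcb, Prkcd, Prkce, Prkch, Prkci, Prkcq and Prkcz were followed in polyadenylated RNA of mouse brain. They were chosen by gene symbol and are 8 of the 53055 genes found in both deposited tables, with 55 of the 140992 transcripts quantified in the posterior library. The posterior and the anterior library each came from brain tissue of a wild type male C57BL/6J mouse aged 14 weeks, and the tissue position was matched to posterior or anterior slices that had been imaged by MERFISH, which counts RNA molecules in sections by microscopy. For the posterior sample the sex and age stand only in its title, and the sources used here do not say whether the animals were separate. Each position had 1 library, so no spread between animals could be measured and no test was made. The posterior library held 147138183 estimated fragments, quantified per transcript, and the anterior library 43558839 fragments, quantified per gene. Position, library and quantification pipeline therefore cannot be told apart, and all values below compare 2 libraries.

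Protein kinase C enzymes are serine/threonine kinases that act downstream of receptors coupled to phospholipase C, which splits a membrane lipid into diacylglycerol and the calcium-releasing messenger IP3. The conventional enzymes, encoded here by Prkca and Prkcb, respond to calcium and diacylglycerol, those encoded by Prkcd, Prkce, Prkch and Prkcq respond to diacylglycerol without calcium, and the atypical enzymes of Prkci and Prkcz respond to neither. In an inactive enzyme a stretch of its own regulatory region, the pseudosubstrate, occupies the active site. It resembles a substrate but has alanine where a substrate has the serine or threonine to be phosphorylated.

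The coding bases of that stretch are shown because they recur in all 8 genes and because a main brain transcript of Prkcz does not translate them. Each line gives 39 bases of the coding strand from the mm10 genome, with the alanine codon in capitals.
Prkca: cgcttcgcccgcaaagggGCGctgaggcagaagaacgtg
Prkcb: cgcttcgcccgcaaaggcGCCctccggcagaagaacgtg
Prkcd: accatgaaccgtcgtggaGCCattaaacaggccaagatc
Prkce: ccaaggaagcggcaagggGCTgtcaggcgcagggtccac
Prkch: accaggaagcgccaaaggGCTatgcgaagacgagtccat
Prkcq: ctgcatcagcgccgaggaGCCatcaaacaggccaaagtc
Prkci: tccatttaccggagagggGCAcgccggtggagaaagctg
Prkcz: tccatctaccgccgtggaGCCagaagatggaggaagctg

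These stretches lie at chr11:108343575-108343613 on the minus strand (Prkca), chr7:122289399-122289437 on the plus strand (Prkcb), chr14:30607368-30607406 on the minus strand (Prkcd), chr17:86474361-86474399 on the plus strand (Prkce), chr12:73691583-73691621 on the plus strand (Prkch), chr2:11245297-11245335 on the plus strand (Prkcq), chr3:31029488-31029526 on the plus strand (Prkci) and chr4:155300975-155301013 on the minus strand (Prkcz). The alanine is codon 25 in both conventional genes. It lies farther into the coding sequence in the others, at codon 119 in Prkcz, 129 in Prkci, 147 in Prkcd, 148 in Prkcq, 159 in Prkce and 161 in Prkch. Within this window Prkca and Prkcb had the same base at 35 of 39 positions, Prkci and Prkcz at 28, and both the pair Prkcd and Prkcq and the pair Prkce and Prkch at 26.

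Levels are given in 2 ways. FPKM, fragments scaled to gene length and library total, allows genes within a library to be compared per length. The deposited anterior FPKM divided by a gene length equal to the union of all annotated exons in all 8 genes, whereas posterior FPKM was computed from the deposited estimated counts and the effective length of each transcript. The fragment share, in FPM or fragments per 1000000 fragments in protein-coding genes, uses no length and was used beside FPKM between libraries. The brackets give 95% exact intervals, which cover counting error only: fragments lacking molecular identifiers are not independent.

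Of the conventional genes, Prkcb led the family by FPKM in both libraries. It encodes protein kinase C beta and spans chr7:122288751-122634402 on the plus strand. Its FPKM was 285 (283 to 287) in the posterior and 119 (118 to 121) in the anterior sample, from 69255 and 33324 fragments. It ranked 181st by posterior and 289th by anterior FPKM among the 13339 protein-coding genes compared, those reaching an FPKM of 1 in at least 1 library. Prkca, the gene of protein kinase C alpha, spans chr11:107933387-108343928 on the minus strand. It had an FPKM of 27.5 (27.2 to 27.8) in the posterior and 35.5 (34.8 to 36.1) in the anterior sample, from 31458 and 11652 fragments. Prkca was thus below Prkcb in both libraries.

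Of the genes of the diacylglycerol-responsive, calcium-independent enzymes, Prkce was high in both libraries and Prkcd in the posterior library. Prkce, the gene of protein kinase C epsilon, spans chr17:86167785-86657919 on the plus strand. It had an FPKM of 91.1 (90.5 to 91.8) in the posterior and 110 (109 to 112) in the anterior sample, from 79131 and 29275 fragments. Exons of another annotated gene on the same strand, AC154542.1, cover 6.50% of its exonic bases, so part of its count may depend on how shared fragments were assigned. Prkcd, the gene of protein kinase C delta, spans chr14:30595354-30626210 on the minus strand. It had an FPKM of 99.9 (98.8 to 101) in the posterior and 1.53 (1.37 to 1.71) in the anterior sample, from 31805 and 310 fragments. It ranked 719th in the posterior and 11243rd in the anterior sample.

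Prkcq and Prkch were the lowest members of the family in the posterior library and among the 3 lowest in the anterior library. Prkcq encodes protein kinase C theta, best known from signalling at the T cell receptor, and spans chr2:11172108-11301222 on the plus strand. Its FPKM was 6.36 (6.14 to 6.59) in the posterior and 1.24 (1.11 to 1.38) in the anterior sample, from 3061 and 320 fragments. Prkch, the gene of protein kinase C eta, spans chr12:73584796-73778185 on the plus strand. Its FPKM was 3.89 (3.72 to 4.07) in the posterior and 0.575 (0.488 to 0.671) in the anterior sample, from 1849 and 158 fragments. In the anterior library Prkch was the only member under an FPKM of 1. There Prkcd stood above Prkcq by FPKM, with overlapping intervals, but below it by fragments (310 and 320). Overlap of separate intervals is not a test of their difference.

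Of the genes of the atypical enzymes, Prkcz stood above Prkci in both libraries. Prkcz, the gene of protein kinase C zeta, spans chr4:155260129-155361361 on the minus strand. It had an FPKM of 70.3 (69.5 to 71.1) in the posterior and 44.2 (43.4 to 45.1) in the anterior sample, from 28019 and 10205 fragments. Prkci encodes protein kinase C iota, a partner of the Par polarity proteins, and spans chr3:30995747-31052959 on the plus strand. Its FPKM was 14.5 (14.2 to 14.8) in the posterior and 17.1 (16.5 to 17.7) in the anterior sample, from 8674 and 3464 fragments. The highest member exceeded the lowest by 73.2-fold in the posterior and 208-fold in the anterior sample.

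**Figure D1:**
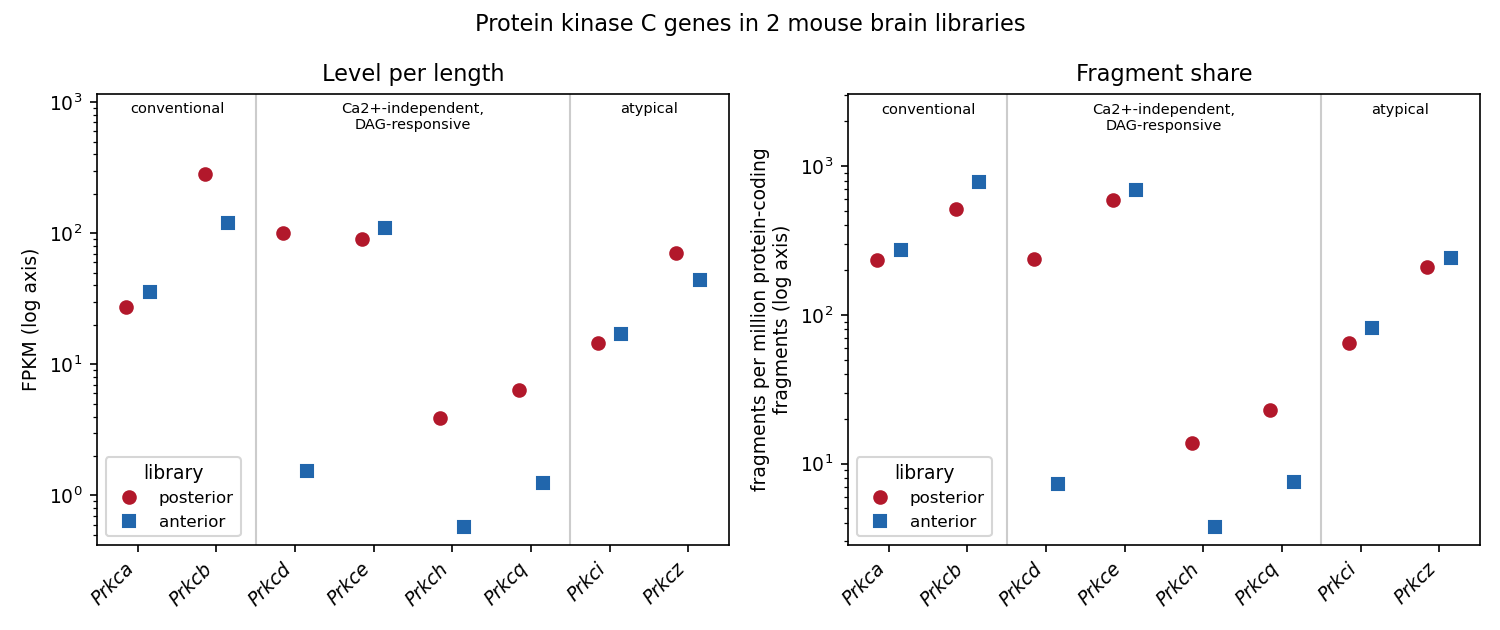
Level of each protein kinase C gene in the posterior and the anterior library (1 library and 1 point each), as FPKM and as fragment share, on log axes. By FPKM Prkcb is the highest gene in both, at 285 in the posterior and 119 in the anterior sample, and Prkcd has the widest gap, with 99.9 in the posterior and 1.53 in the anterior sample.

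Between the libraries, Prkcd, Prkch and Prkcq lay on the posterior side by FPKM and by fragment share, meaning at least 2-fold toward posterior relative to the median gene. On the anterior side, the same distance the other way, there were 0 members on either scale. Over all 13339 genes compared, 14.5% lay on the posterior side and 7.11% on the anterior side by FPKM, and 8.19% and 1.84% by fragment share. Differences are log2 of posterior over anterior with a pseudocount of 0.5, minus the median over all genes, which was 0.63 by FPKM and 0.00298 by fragment share, and they understate the change of low genes. The 8 members had a median difference of 0.33 by FPKM and -0.22 by fragment share, against 0 for all genes on both scales.

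Prkcd differed most. Its share was 236 FPM in the posterior and 7.30 in the anterior sample, a ratio of 32.4 (28.95 to 36.3), and its centred difference came to 4.92 by fragment share and 5.00 by FPKM. By fragment share this was the 64th highest difference among the genes compared. Prkcd is a known marker of thalamic relay neurons. Of 10 other markers of these neurons, 9 lay on the posterior side by fragment share and 8 by FPKM. Over all genes compared, 8.19% and 14.5% did. Tcf7l2, Lef1 and Synpo2 reached an FPKM of 1 in the posterior library only, with 0.530, 0.642 and 0.621 in the anterior sample. The summed share of the 10 markers was 906 FPM in the posterior and 203 in the anterior sample. In bulk tissue fewer cells of a type and less RNA per cell cannot be told apart, and the part of tissue composition in the Prkcd difference was not tested.

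Prkch and Prkcq differed less. Prkch had 13.7 FPM in the posterior and 3.72 in the anterior sample, a ratio of 3.69 (3.14 to 4.37), with centred differences of 1.75 by fragment share and 1.40 by FPKM. Prkcq had 22.8 FPM in the posterior and 7.54 in the anterior sample, a ratio of 3.02 (2.69 to 3.40), with centred differences of 1.53 and 1.35. The intervals of these ratios overlapped each other and lay far below that of Prkcd. As Prkcq and Prkch are also expressed by T cells, 7 T cell markers were examined. Their summed share was 2.78 FPM in the posterior and 2.69 in the anterior sample. Cd3d had 0 fragments in each, a count compatible with up to 3 by a 1-sided 95% limit. Only 1 of the 7, Lck, reached an FPKM of 1 in either library. The sums rest mostly on Cd4 (167 posterior and 50 anterior fragments), Lck (108 and 42) and Trac (83 and 19). Cd3e had 10 and 2, so these counts are too low to judge T cells, whose part was not tested.

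Prkca, Prkce and Prkci had a lower share in the posterior library, with differences within 2-fold on both scales. Prkca had 234 FPM in the posterior and 275 in the anterior sample, a ratio of 0.852 (0.834 to 0.870). Prkce had 588 in the posterior and 690 in the anterior sample, a ratio of 0.853 (0.842 to 0.865). Their centred share differences were both -0.23 and their ratios had overlapping intervals, although they encode a conventional and a calcium-independent enzyme. Prkci had 64.5 in the posterior and 81.6 in the anterior sample, a ratio of 0.790 (0.760 to 0.822) and a centred share difference of -0.34. By FPKM the differences were larger, at -0.99 for Prkca, -0.91 for Prkce and -0.86 for Prkci.

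For Prkcb and Prkcz the direction depended on the scale. Prkcb had 515 FPM in the posterior and 785 in the anterior sample, a ratio of 0.656 (0.647 to 0.665) and a centred difference of -0.61, but by FPKM its difference was 0.62. The anterior gene length of Prkcb was 7651 bases, 4.63 times its posterior effective length of 1653 bases, the largest such ratio of the 8 genes. Prkcz had 208 FPM in the posterior and 240 in the anterior sample, a ratio of 0.867 (0.847 to 0.886) and a difference of -0.21, against 0.03 by FPKM, with a length ratio of 2.33. For Prkca and Prkce the length ratios were 1.16 and 1.23.

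Summed over the 8 genes, the share was 1883 FPM in the posterior and 2090 in the anterior sample, 1.11-fold (1.10 to 1.12) higher in the anterior library. Without Prkcd it was 1.26-fold (1.25 to 1.27) higher there. The summed FPKM went the other way, with 598 in the posterior and 330 in the anterior sample before centring. Gene lengths and the library-wide scaling differed between these sums.

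**Figure D2:**
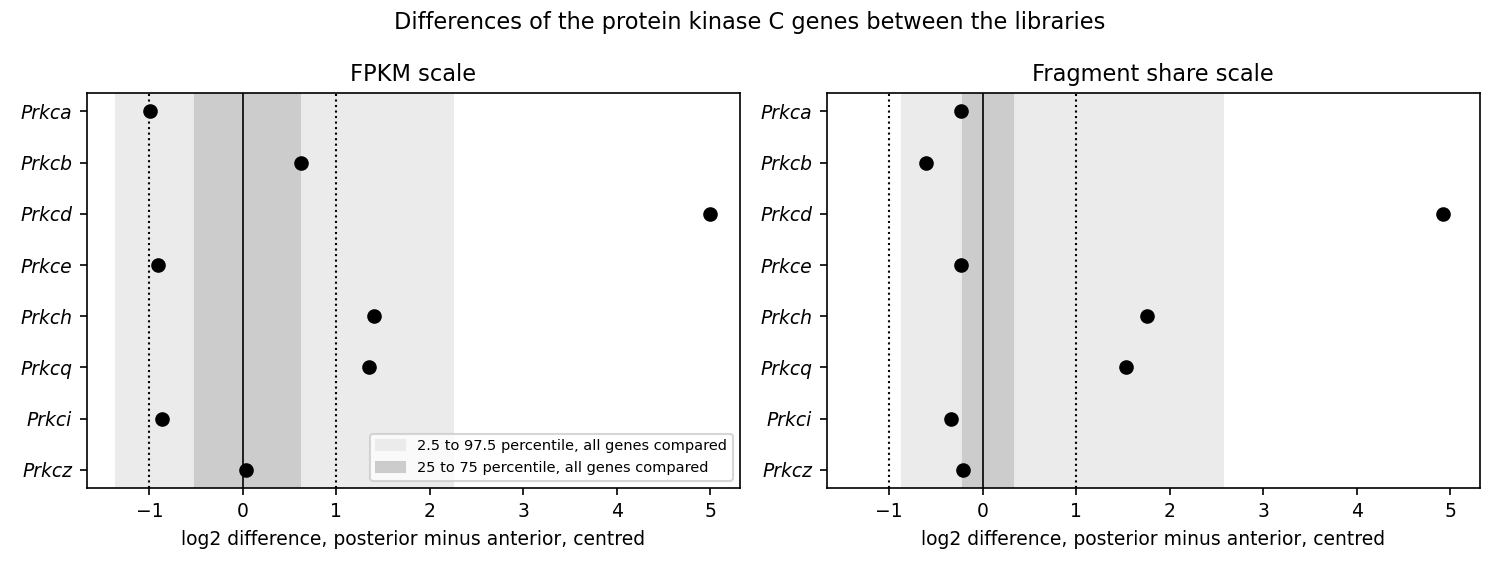
Centred log2 difference, posterior minus anterior, of each protein kinase C gene by FPKM and by fragment share, with dotted lines at 2-fold and shading for the middle range of all genes compared. Prkcd, Prkch and Prkcq lie above 2-fold on both scales, while Prkcb lies at 0.62 by FPKM and at -0.61 by fragment share.

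The balance within the family, the percent of the summed level of these 8 genes and not of all protein kinase C genes, was also read on several scales. By FPKM, Prkcb took 47.6% of the sum in the posterior and 36.2% in the anterior sample. Prkce took 15.2% and 33.5%, Prkcd 16.7% and 0.464%, Prkcz 11.8% and 13.4%, and Prkca 4.59% and 10.8%, with the posterior value first. Prkci (2.42% and 5.18%), Prkcq (1.06% and 0.375%) and Prkch (0.650% and 0.174%) made up the rest. The posterior library was thus led by Prkcb alone by FPKM, and the anterior library by Prkcb and Prkce together.

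By fragments, Prkce led the posterior library with 31.2%, against 33.0% in the anterior library, and Prkcb led the anterior library with 37.6%, against 27.3% in the posterior library. Prkcd took 12.6% of the posterior and 0.349% of the anterior fragments. The other members differed by less than 1 percentage point: Prkca had 12.4% and 13.1%, Prkcz 11.1% and 11.5%, and Prkci 3.43% and 3.90% in the posterior and the anterior library. Prkcq had 1.21% and 0.361%, and Prkch 0.730% and 0.178%, small in points but large relative to their level. Anterior fragments were also divided by the posterior effective lengths, so that each gene had the same length in both libraries. On that scale Prkcb took 47.6% of the posterior and 63.9% of the anterior sum, and Prkce 15.2% and 15.7%.

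By class, the share of the conventional genes was 52.2% in the posterior and 46.9% in the anterior sample by FPKM, but 39.8% and 50.7% by fragments and 52.2% and 68.7% with the same lengths in both. The calcium-independent, diacylglycerol-responsive class had 33.6% in the posterior and 34.5% in the anterior sample by FPKM, 45.7% and 33.9% by fragments, and 33.6% and 16.7% with the same lengths. The atypical genes had 14.2% in the posterior and 18.6% in the anterior sample by FPKM, 14.5% and 15.4% by fragments, and 14.2% and 14.6% with the same lengths. The direction of the conventional share therefore turned with the scale.

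**Figure D3:**
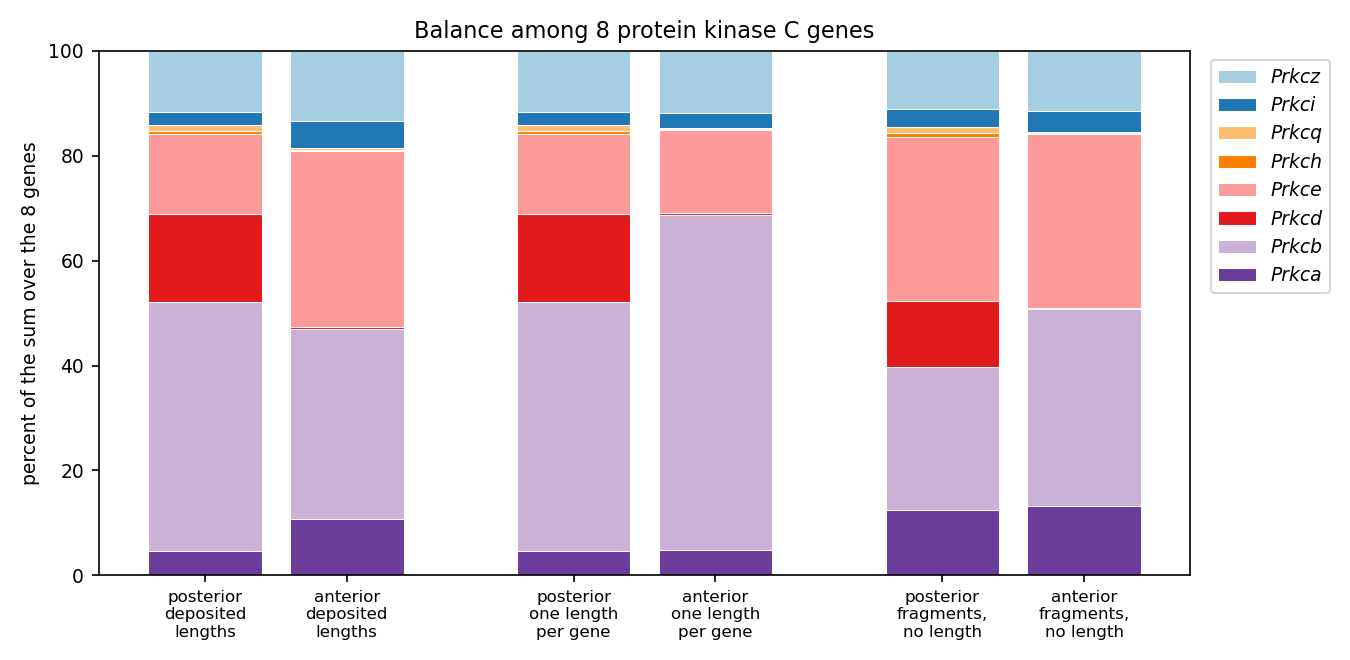
Percent of the summed level of the 8 genes taken by each, in the posterior and the anterior library, by FPKM with the deposited lengths, with the same gene lengths in both libraries, and by fragments. Prkcd takes 12.6% to 16.7% of the posterior and less than 1% of the anterior sum on each scale, while the Prkcb percent is higher in the posterior library by FPKM only.

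Transcripts were quantified in the posterior library alone. Of the 55 annotated transcripts, 47 had fragments. Their shares are given without intervals, as no estimation error of Salmon, the quantification tool, was used. A single protein-coding transcript held most of the FPKM in Prkce (Prkce-202, 98.7%), Prkca (Prkca-201, 95.4%), Prkch (Prkch-201, 93.6%), Prkci (Prkci-201, 91.8%), Prkcq (Prkcq-201, 82.4%) and Prkcd (Prkcd-207, 73.8%). Prkcz-202 held 65.2% of Prkcz. In Prkcb the leading transcript was Prkcb-208, a retained-intron model with no annotated coding sequence, with 50.1% of the FPKM.

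Retained-intron models, which keep intronic sequence and are not annotated as coding, were 15 of the 55 transcripts and occurred in 6 of the 8 genes. They held 50.3% of the FPKM and 20.6% of the fragments of Prkcb, 19.5% and 7.76% of Prkcd, 16.6% and 16.4% of Prkcq, 7.66% and 0.817% of Prkci, 1.17% and 0.976% of Prkch, and 0.917% and 0.0534% of Prkce. Prkca and Prkcz had no such model. Over 7630 protein-coding genes with at least 1 such model, the median was 9.24% of the FPKM and 3.82% of the fragments, and Prkcb stood at percentiles 95.5 and 86.9. A retained-intron model led by FPKM in 2.91% and by fragments in 1.63% of 11965 genes with at least 2 transcripts. After Prkcb-208, the leading models by FPKM were Prkcq-203 (13.5%) in Prkcq, Prkci-204 (7.66%) in Prkci, Prkcd-212 (6.10%) in Prkcd, Prkch-203 (1.17%) in Prkch and Prkce-203 (0.592%) in Prkce.

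**Figure D4:**
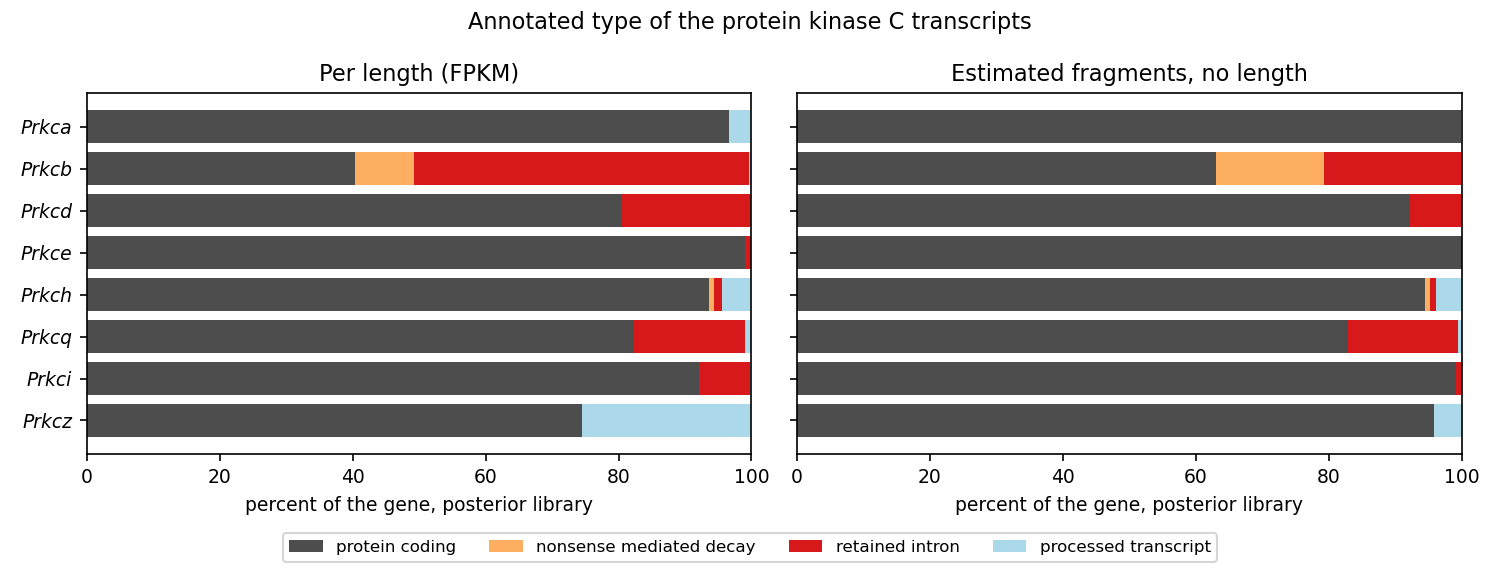
Percent of each protein kinase C gene's posterior level in protein-coding, nonsense-mediated-decay, retained-intron and processed transcripts, by FPKM and by fragments. Retained-intron models take 50.3% of Prkcb by FPKM but 20.6% by fragments.

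The Prkcb transcripts end in alternative last exons, which give the beta I and beta II enzymes their tails. Prkcb-202, with the beta II end, had 35.3% of the gene's FPKM and 56.0% of its fragments. Prkcb-201, with the beta I end, had 5.15% and 7.07%. Prkcb-202 thus exceeded Prkcb-201 by 6.85-fold in FPKM and 7.92-fold in fragments. Prkcb-205, annotated as subject to nonsense-mediated decay, had 8.86% and 16.3%.

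The coding parts of both last exons and the start of the shared stretch of Prkcb-208 are shown because the assignment of Prkcb fragments turns on them (mm10, plus strand). Capitals mark the serine codon of the hydrophobic motif, a phosphorylation site near the carboxyl end, in the first pair, and the last 2 intron bases before the beta I exon in the third.
Prkcb-202 (beta II), chr7:122627656-122627811: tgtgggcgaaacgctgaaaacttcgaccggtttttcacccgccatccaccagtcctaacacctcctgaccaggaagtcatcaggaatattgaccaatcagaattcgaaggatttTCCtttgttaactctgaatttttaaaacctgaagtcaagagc
Prkcb-201 (beta I), chr7:122633745-122633894: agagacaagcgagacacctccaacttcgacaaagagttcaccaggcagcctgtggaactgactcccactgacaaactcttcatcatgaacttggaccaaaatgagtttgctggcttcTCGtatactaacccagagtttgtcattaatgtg
Prkcb-208, chr7:122633705-122633784: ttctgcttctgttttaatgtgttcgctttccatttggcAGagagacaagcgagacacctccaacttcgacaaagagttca

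Prkcb-208 is a single exon of 955 bases, of which 297 are intronic in the coding models and 658 are the whole last exon of Prkcb-201, coding bases included. Prkcb-205 holds 655 of those 658 bases as well. The 2 alternative last exons lie 5089 bases apart. The summed FPKM of transcripts carrying the beta I exon was 182, or 39.9 without Prkcb-208, and that of transcripts carrying the beta II exon was 126. Prkcb-205 carries bases of both exons and is in both sums, although its coding sequence ends in the beta II exon. By FPKM, which of these sums was the larger therefore turned on whether Prkcb-208 was counted. By fragments it did not: with Prkcb-208 counted, transcripts carrying the beta I exon held 43.6% and those carrying the beta II exon 72.3%. These are fragments of whole transcripts, so longer models hold more at the same level, and they do not rank the ends. Prkcb-208 had 14008 fragments, 20.2% of the gene's, and an FPKM of 143, which was 1.42 times that of Prkcb-202 with 38765 fragments. Without it the posterior FPKM of Prkcb was 142, of which Prkcb-202 made up 70.6%.

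Prkcz has alternative starts. Prkcz-201 encodes the full-length enzyme, and Prkcz-202 starts 15589 bases downstream, with 1227 coding bases that are all part of the 1776 of Prkcz-201. In the mouse brain the short form is known as PKM zeta, a kinase without the regulatory region. Prkcz-202 had 65.2% of the gene's FPKM and 91.4% of its fragments (25607), against 4.14% and 3.60% (1008 fragments) for Prkcz-201. The short transcript thus exceeded the full-length one by 15.8-fold in FPKM and 25.4-fold in fragments. These models differ at the 3' end too. The last exon reaches 101233 bases from the gene's first annotated base in Prkcz-202 and 99641 in Prkcz-201. Fragments from the added end do not tell the starts apart, so the ratios do not measure use of the starts alone. Prkcz-209, a processed transcript without a coding sequence, had 20.7% of the FPKM and 3.84% of the fragments. The pseudosubstrate bases printed above lie in 7 of the 10 Prkcz transcripts but are coding in 2, Prkcz-201 and Prkcz-206. In Prkcz-202 they lie upstream of its coding start.

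Of 3 Prkcz promoters in RefSeq, those matched to Prkcz-201 and Prkcz-202 are shown, because these transcripts were quantified separately. The windows (GRCm38.p6, minus strand) run from 250 bases before to 10 after the RefSeq start. Capitals mark TGACGTCA, the palindromic cyclic AMP response element.
Prkcz-201, chr4:155361419-155361678: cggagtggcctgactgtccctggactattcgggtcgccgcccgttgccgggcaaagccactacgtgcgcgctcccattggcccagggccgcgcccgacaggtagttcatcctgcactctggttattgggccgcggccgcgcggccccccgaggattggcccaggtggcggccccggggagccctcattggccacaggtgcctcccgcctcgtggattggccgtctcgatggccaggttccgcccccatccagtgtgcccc
Prkcz-202, chr4:155345780-155346039: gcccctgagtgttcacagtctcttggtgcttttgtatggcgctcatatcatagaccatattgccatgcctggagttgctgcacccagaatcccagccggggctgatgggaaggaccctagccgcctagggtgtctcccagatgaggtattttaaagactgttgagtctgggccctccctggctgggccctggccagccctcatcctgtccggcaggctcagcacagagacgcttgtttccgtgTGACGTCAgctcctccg

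The RefSeq starts lie 67 bases from the GENCODE start of Prkcz-201 and 17 bases from that of Prkcz-202. TGACGTCA occurred once in the Prkcz-202 window, from 7 bases before the RefSeq start, and 0 times in that of Prkcz-201. On either strand it occurred in 549 of 32851 promoter windows of the same length, or 1.67%. Its shorter form TGACG occurred in 18.8% of windows and lay in that of Prkcz-202 only inside the palindrome, on both strands. The GC box GGGCGG, held by 33.4% of windows, occurred at 2 places in the Prkcz-201 and at 0 in the Prkcz-202 window. The TATA box TATAAA, held by 12.7%, was in neither window. The E box CANNTG, held by 67.7%, occurred at 2 places in the Prkcz-201 and 1 in the Prkcz-202 window. The GC content was 70.8% for Prkcz-201 and 58.5% for Prkcz-202, against a median of 52.3%. A match of letters describes the sequence and shows no binding.

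**Figure D5:**
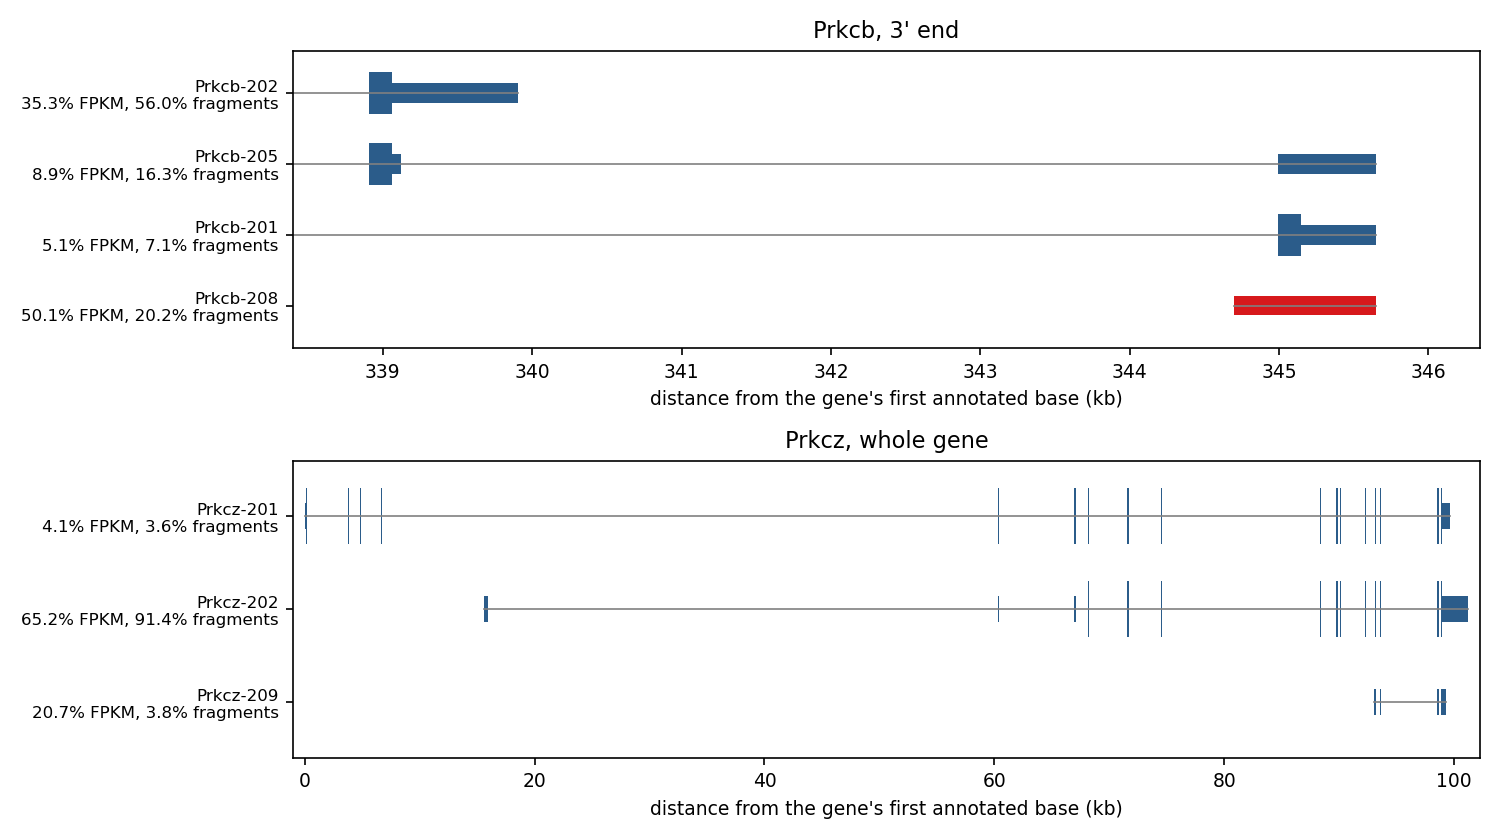
Exon models of the main Prkcb and Prkcz transcripts with their percent of the gene's posterior FPKM, drawn by distance along the gene, with tall boxes for coding bases, low boxes for other exon bases and red for the retained-intron model. Prkcb-208 overlaps the last exon of Prkcb-201, and Prkcz-202 starts downstream of Prkcz-201.

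Genes that act with protein kinase C were described from 7 lists of 72 genes, 68 of which were compared. By FPKM 13 of the 68 (19.1%) lay on the posterior side and 2 (2.94%) on the anterior side, against 14.5% and 7.11% of all genes. By fragment share the counts were 8 (11.8%) and 0, against 8.19% and 1.84%. Their median difference came to -0.21 by FPKM and 0.05 by fragment share.

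Kinases related to protein kinase C and enzymes acting on it had a median difference over 8 compared genes of -0.05 by FPKM and 0.20 by fragment share. Pdpk1, the kinase that phosphorylates the activation loop, had an FPKM of 24.9 in the posterior and 23.8 in the anterior sample. The phosphatases Phlpp1 and Phlpp2 had 23.7 and 10.8 in the posterior and 19.6 and 11.5 in the anterior sample.

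Among Gq proteins and phospholipases C, which act upstream, 3 of 16 lay on the posterior side by FPKM and 2 by fragment share, and 0 on the anterior side. Gnaq, the main Gq subunit, had an FPKM of 45.8 in the posterior and 54.2 in the anterior sample. The phospholipase Plcb4 had 43.6 in the posterior and 13.0 in the anterior sample, with a difference of 1.07 by FPKM but 0.56 by fragment share. Plce1, a phospholipase bound by Ras, had 2.94 in the posterior and 0.501 in the anterior sample, a share ratio of 3.62 (3.21 to 4.09). Plcd4 had a difference of 1.65 by FPKM and 1.31 by share, but 29.8% of its exonic bases lie under Zfp142. The IP3 receptors Itpr1 (91.3 in the posterior and 65.8 in the anterior sample) and Itpr2 (3.55 and 1.82) were within 2-fold on both scales.

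Of 10 diacylglycerol kinases, which remove the activating lipid, 3 lay on the posterior side by FPKM and 1 by fragment share, and 0 on the anterior side. The gene on both scales was Dgkk, with 1707 fragments in the posterior and 24 in the anterior sample and a share ratio of 22.4 (15.0 to 35.1). Dgkz, the kinase with the highest FPKM, had 120 in the posterior and 103 in the anterior sample, and Dgkb had 30.8 and 21.4. Dgkg had 20.3 in the posterior and 5.38 in the anterior sample, a difference of 1.19 by FPKM but 0.65 by share.

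Among 8 other receptors of diacylglycerol, 2 lay on the posterior side on each scale, Rasgrp2 and Unc13b by FPKM and Rasgrp2 and Unc13c by fragment share. Unc13c, a relative of Unc13b named here after its values were seen, had 14917 fragments in the posterior and 1149 in the anterior sample, a share ratio of 4.10 (3.86 to 4.35), and a difference of 0.98 by FPKM. On the anterior side there was 1 by FPKM and 0 by fragment share, Rasgrp1, an activator of Ras, with an FPKM of 105 in the posterior and 157 in the anterior sample and a difference of -1.21 by FPKM but -0.44 by share. Rasgrp2, an activator of Rap, had an FPKM of 34.0 in the posterior and 1.25 in the anterior sample, a difference of 3.68, but its share ratio was 2.05. Unc13b, a synaptic vesicle priming factor, had differences of 1.24 by FPKM and -0.21 by share. Chn1, a Rac-inactivating protein, had an FPKM of 325 in the posterior and 132 in the anterior sample and a share difference of 0.05.

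Of 12 scaffolds and partners, 3 lay on the posterior side by FPKM and 2 by fragment share, and 0 on the anterior side. Pard3, the polarity protein that binds atypical enzymes, had an FPKM of 8.76 in the posterior and 1.16 in the anterior sample and a share ratio of 2.17. Pick1, which binds protein kinase C alpha, had 23.9 in the posterior and 2.56 in the anterior sample, a share ratio of 2.88, with 18.6% of its exonic bases under another gene. Sqstm1, a partner of the atypical enzymes, had 209 in the posterior and 156 in the anterior sample, and Fez1, a partner of protein kinase C zeta, had 120 and 53.5.

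Of 12 substrates, 1 lay on each side by FPKM and 0 by fragment share. Mbp, myelin basic protein and also an oligodendrocyte marker, had an FPKM of 1554 in the posterior and 208 in the anterior sample, with differences of 2.27 by FPKM and 0.88 by share. Nrgn, neurogranin, a calmodulin-binding protein of dendrites, had 615 in the posterior and 1077 in the anterior sample, with differences of -1.44 and -0.80. Snap25, a synaptic fusion protein, had 965 in the posterior and 533 in the anterior sample, with differences of 0.22 by FPKM and -0.78 by share.

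Markers of some other cell types differed between the libraries as well, and their part in the differences above was not tested. Over all genes compared, 8.19% lay on the posterior and 1.84% on the anterior side by fragment share. A count of 1 in a list of 6 was not read as a change of that cell type. By fragment share, 0 of 10 markers of isocortical excitatory neurons lay on the posterior and 3 on the anterior side, and their summed share was 1444 FPM in the posterior and 2345 in the anterior sample. Of 6 oligodendrocyte markers 1 lay on the posterior side, with summed shares of 6765 and 3614. All 5 choroid plexus markers did, with 706 in the posterior and 3.02 in the anterior sample. Their anterior FPKM was 0.296 or less, so they were compared through their posterior level alone. Hippocampal markers (5 of 8 on the posterior and 1 on the anterior side) and striatal markers (3 of 9 and 0) had summed shares of 811 and 513 in the posterior and 589 and 295 in the anterior sample. The hippocampal sum leaned on Zbtb20, with 46492 posterior and 3405 anterior fragments. By FPKM the hippocampal sum went the other way, with 148 in the posterior and 153 in the anterior sample. The sums of microglial (205 in the posterior and 217 in the anterior sample), endothelial (206 and 199) and astrocyte markers (4963 and 4894) were close. Of 6 astrocyte markers, 1, Gfap, lay on the posterior side with a share ratio of 2.59, and 0 on the anterior side. Among the microglial and endothelial markers 0 lay on either side. The cerebellar list had 3 of 7 genes compared, with summed shares of 174 in the posterior and 145 in the anterior sample. Gabra6, a marker of cerebellar granule cells, had 0 fragments in each, a count compatible with up to 3 by a 1-sided 95% limit.

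The 5 genes whose FPKM in both libraries lay nearest to that of Prkcd, by Euclidean distance in log2 of FPKM plus 0.5 over 2 libraries, were Nme2 (distance 0.46), Erdr1 (0.62), Ndufb2 (0.66), Cox17 (0.72) and Mrpl33 (0.77). Nme2, a nucleoside diphosphate kinase, had an FPKM of 73.2 in the posterior and 1.66 in the anterior sample, with 48.9% of its exonic bases under a neighbouring gene. Ndufb2, a subunit of respiratory complex I, had 112 in the posterior and 2.65 in the anterior sample, with differences of 4.53 by FPKM and 1.85 by share. Mrpl33, a mitochondrial ribosomal protein, had differences of 4.14 and 0.60. Prkcd, with 5.00 by FPKM and 4.92 by share, kept its size on both scales, as did Nme2 with 4.46 on both and Erdr1 with 4.13 and 3.98. Cox17, a copper chaperone, had 6.01 and 2.58.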

How the data were processed

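The authors deposited anterior FPKM per gene with gene lengths, from reads aligned with HISAT2 2.0.5 to mm10, per the submitters' processing notes; its counting program, annotation and strand setting were not stated in these sources. The posterior table, as deposited by the authors, holds estimated counts, TPM and lengths per transcript, made with Salmon, per the labels' protocols; its version is not given there. TPM was not used. The design assumed FPKM in both libraries, so posterior FPKM was computed from the estimated counts. Anterior fragments were recovered from FPKM times gene length, whole within 0.001 for 100% of 54532 genes.

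Genes were joined by identifier (Python 3.11.15, pandas 2.3.3, scipy 1.17.1). Called means at least 2-fold from the median of protein-coding genes reaching an FPKM of 1 in at least 1 library. Intervals are exact Clopper-Pearson or Poisson intervals; the procedure was tested on simulated data. Exons came from GENCODE M21 and promoters from RefSeq. Besides the members, each list's 2 highest and 2 most different genes, leading transcripts, transcripts with a share of at least 10% and the 5 nearest genes to Prkcd were named. The members and lists were chosen with earlier results of these data known. Alternatives covered the pseudocount, filter, centring, length and transcript class. The values of a gene in the pathway lists are not reported here, although it is in the lists' counts and medians.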

Additional observations from a re-analysis of the deposited data

How the results depend on the processing

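Members on the posterior side (at least 2-fold) numbered 3 as reported and 2 to 4 under the alternatives, where 7.82% (same length in both libraries) to 33.6% (no centring) of all genes compared lay there. Prkcd, Prkch and Prkcq kept their direction wherever they were compared. At an FPKM of at least 5 Prkch was not compared. Without a filter (difference 1.03) or without centring (1.25, with the shift of 0.63 common to all genes left in) Prkcb passed 2-fold as well, beside 15.9% and 33.6% of all genes. With a pseudocount of 0.1 or an FPKM of at least 5, 1 member, Prkca, passed 2-fold on the anterior side, beside 8.87% and 7.75% of all genes. Of 63 alternative differences of members, 8 changed sign, 5 of them of Prkcz and 3 of Prkcb. Those of Prkcb were -0.61 by fragment share, -0.39 with protein-coding transcripts alone and -0.62 with the same length in both libraries. The pathway genes on the posterior side numbered 13, but 8 by fragment share, 8 with the same length in both libraries and 20 without centring, against 14.5%, 8.19%, 7.82% and 33.6% of all genes. Those on the anterior side numbered 2, but 5 at a pseudocount of 0.1, 1 without a filter and 1 with protein-coding transcripts alone. The shares of all genes there were 7.11%, 8.87%, 1.67% and 5.42%. By fragment share, without centring or with the same length they numbered 0, against 1.84%, 1.27% and 1.90% of all genes. The Prkcb percent of the family in the posterior library was 47.6 by FPKM, 27.3 by fragments, 29.7 with protein-coding transcripts alone, 44.9 with annotated lengths and 31.2 without Prkcb-208, and in the anterior library 36.2 by FPKM, 37.6 by fragments and 63.9 with the same length. Prkcz-202 held 65.2% by FPKM, 91.4% by fragments, 73.6% with annotated lengths and 66.8% among transcripts of at least 500 bases. Retained-intron models held 50.3% of Prkcb by FPKM, 20.6% by fragments and 44.2% with annotated lengths. The same-length scale and leaving out Prkcb-208 were chosen after seeing the data. The cause of these changes was not tested. No paired analysis was possible because each position has 1 library, and leaving out a library would leave no comparison. Depth limits Prkch, Prkcd and Prkcq most, with 158, 310 and 320 anterior fragments.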
